A study of Mus musculus with 4 samples.

Results

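Endothelial cells carrying UMIs of Selp, Slco2a1 or Clca3a1 were followed in mouse livers bearing MC38 tumours, from a mouse colon adenocarcinoma line that grows as liver metastases. There were 612 such cells among 25161 cells that passed the quality filter. They were chosen by measured values: at least 2 unique molecular identifiers (UMIs, counted transcript molecules) summed over Selp, Slco2a1 and Clca3a1, at least 2 over the endothelial genes Cdh5, Egfl7 and Ptprb, and none of Clec4f, Cd3e, Cd79a or Csf3r, which mark Kupffer, T, B and neutrophil cells. They are called the Selp-gate cells below.

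The study compared livers of sedentary mice, labelled Sed, with livers of mice that exercised before surgery, labelled PEx in the protocol and Ex in the sample names, in a model in which surgical stress promotes the metastases. Both groups carried MC38 tumours, and the samples are labelled as male mice of 8 weeks, taken 3 weeks after tumour injection. Each group has 2 libraries of 10x 3' single-cell RNA, and nothing in the labels says that the libraries came from separate mice, so p-values measure only the spread between these libraries. The exercise regimen, the strain and the surgery are not given in the sources used here. Non-parenchymal cells were enriched for CD45, the common leukocyte antigen, with magnetic beads to a stated purity above 90%, so endothelial cells are what the beads let through, and their share of a library depends on that step.

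Selp encodes P-selectin, which endothelial cells store in Weibel-Palade bodies and move to the surface to capture rolling leukocytes, and which platelets also hold. Slco2a1 encodes a transporter that takes up prostaglandins, and Clca3a1 a member of the calcium-activated chloride channel regulator family. In liver, the sinusoids are lined by fenestrated endothelium that clears waste through scavenger and lectin receptors such as Stab2, Clec4g and Mrc1. Veins and arteries are lined by continuous endothelium, in which Vwf is a usual marker, and endothelium of the central vein and nearby sinusoids supplies Rspo3, Wnt2 and Wnt9b, which hold pericentral hepatocytes in a Wnt-dependent state.

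The data went against a non-sinusoidal identity. Of the 612 cells, 588 (96.1%) also held at least 3 UMIs over the sinusoidal genes Stab2, Clec4g and Oit3, in 51, 169, 115 and 253 cells of the libraries Sed 1, Sed 2, Ex 1 and Ex 2. Only 24 cells lay outside that gate, 5, 7, 5 and 7 per library, and 25 cells had fewer than 10 sinusoidal UMIs per 10000. Clec4g, a C-type lectin of sinusoidal endothelium, reached 2389.8, 2569.8, 3085 and 3059.8 CPM (UMIs of a gene per 1000000 UMIs of the summed cells) in the 4 libraries, and a UMI of it was found in 94.6%, 97.2%, 97.5% and 98.1% of the cells. In B-like cells, which should lack the gene, the shares were 0.93%, 1.39%, 1.08% and 3.04%, at median depths of 2076, 1823, 2489 and 2904 UMIs against 8589, 6906, 5422 and 5269 in the Selp-gate cells. With every cell thinned to 1000 UMIs the Clec4g shares were 86.8%, 84.8%, 90.4% and 91.1%. Nor did most cells come from 1 sedentary library: Sed 1 gave 56 cells, Sed 2 gave 176, Ex 1 gave 120 and Ex 2 gave 260.

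The endothelial identity itself held. All 21 genes of a pan-endothelial list were detected in all 4 libraries, with summed levels of 7997, 9359, 10845 and 11292 CPM. Pecam1, the junctional adhesion molecule CD31, stood at 692, 622, 634 and 657 CPM, and the levels of the groups overlapped. Of 23 sinusoidal genes, 21 were found in every library, and of 20 venous genes 16 were. All 5 mesothelial markers were at 0, but they summed to only 0.349 to 1.62 CPM over all kept cells, so their absence tells little. The other 448 endothelial cells of the sinusoidal gate, with fewer than 2 UMIs of the 3 gate genes, numbered 14, 28, 145 and 261 and serve as the comparison.

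**Figure D1:**
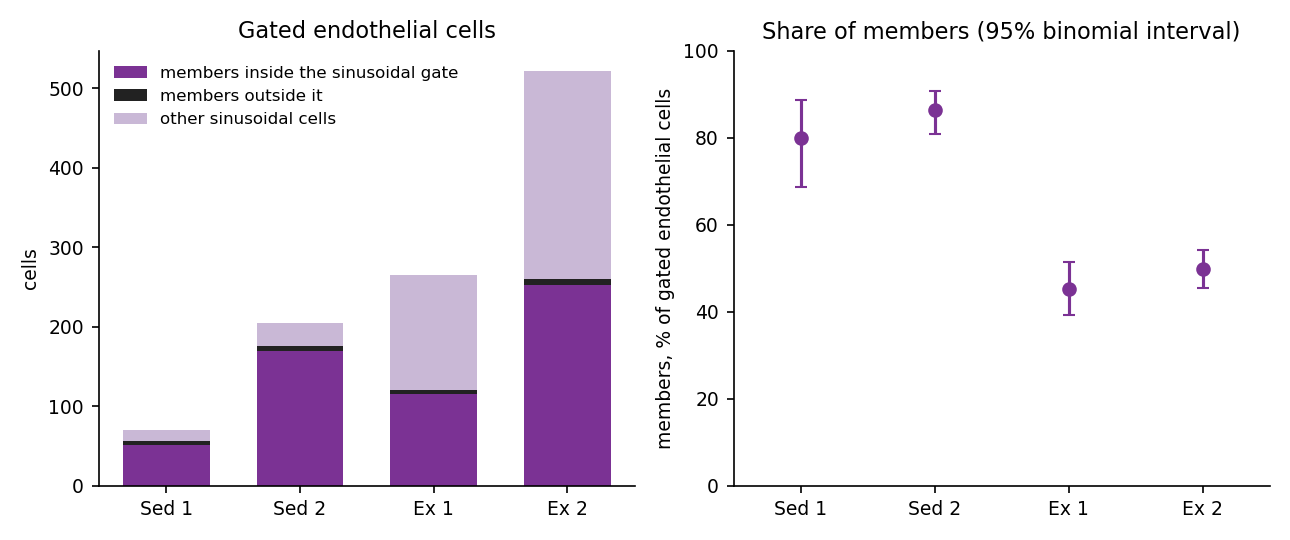
Left, number of gated endothelial cells in each library, split into Selp-gate cells (members) inside and outside the sinusoidal gate and other sinusoidal cells. Right, Selp-gate cells as a percentage of all gated endothelial cells with exact 95% binomial intervals, 80.0% and 86.3% in the sedentary libraries and 45.3% and 49.9% in the exercised ones.

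The summed Selp-gate cells held 464049 and 1310602 UMIs in the sedentary libraries and 632086 and 1465779 in the exercised ones. The other sinusoidal cells were shallower, with median depths of 1705, 1057, 1435 and 1826 UMIs, so a gate on a UMI minimum also chose the deeper cells. The median mitochondrial share of the Selp-gate cells was 3.69% and 3.29% in the sedentary libraries and 4.66% and 4.66% in the exercised ones. Markers of other cells were present in unequal amounts. Summed neutrophil markers (7 genes) reached 7266 CPM in Sed 1 against 219.8, 41.1 and 34.1 in the other libraries, and erythroid markers (7 genes, 2 of them at 0) reached 7077 in Ex 2 against 30.2, 20.6 and 38.0. Macrophage markers (11 genes) ranged from 1532 to 1716 in the sedentary group and from 485 to 1680 in the exercised group, and hepatocyte markers (12 genes) from 49.6 to 437 and from 114 to 201. Pan-leukocyte markers (10 genes) summed to 1582, 1113, 1748 and 1473 CPM, and 2 of the 10 rose in exercised libraries (edgeR, where 4.82% of all genes were higher), Ptprc (30.2, 31.3, 83.8 and 70.3 CPM, log2 fold change 1.15 ± 0.27, adjusted p = 0.0164) and Srgn (485, 483, 872 and 832, log2 fold change 0.65 ± 0.18, adjusted p = 0.0423). Ptprc lost its call without Ex 1 (1.05, adjusted p = 0.109) or Ex 2 (1.27, 0.0577), and Srgn without Sed 2 (0.58, 0.0525), Ex 1 (0.63, 0.277) or Ex 2 (0.67, 0.278). In edgeR no gene of the neutrophil, erythroid, macrophage or hepatocyte lists passed between conditions, of 2, 2, 8 and 5 tested. The medians of the tested neutrophil and erythroid genes were -7.10 and 6.81 on the log2 scale. DESeq2 called 2 of 2 neutrophil genes lower and 1 of 2 erythroid genes higher in exercised libraries, where 3.66% of all genes were lower and 2.07% higher. It called 0 of the 10 pan-leukocyte genes. An alternative added after the data had been seen left out the 44 cells with at least 5 UMIs over Ptprc, Cd52, Coro1a and Tyrobp. It left 863 edgeR calls by condition, 754 of them shared with the test of all Selp-gate cells. Calls lost there included Fos (-0.48, edgeR adjusted p = 0.732), Ier2 (-0.46, 0.44), Cd34 (-1.75, 0.0701) and Cd300lg (2.81, 0.0526). The part of each kind of such RNA in other results was not tested. Of the 612 cells, 4 shared a barcode sequence with another library.

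Among the gate genes, Slco2a1 carried most of the selection. A UMI of Slco2a1 was found in 53, 173, 119 and 250 of the cells, one of Selp in 45, 147, 16 and 28, and one of Clca3a1 in 43, 141, 28 and 89. In the exercised libraries 76 and 153 cells entered through Slco2a1 alone, against 5 and 12 in the sedentary ones. The median sum over the 3 genes was 13 and 11 UMIs in the sedentary libraries and 4 in both exercised ones. At the threshold, 121 cells held exactly 2 UMIs, with a median depth of 3136 UMIs, and 218 endothelial cells with exactly 1 UMI stayed outside, with a median depth of 2211.5. A Selp-gate cell of an exercised library was mostly an endothelial cell with Slco2a1 and no detected Selp.

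Selp (chromosome 1, 164115264 to 164150026, plus strand, GRCm38) stood at 409 and 454 CPM in the sedentary libraries and 55.4 and 47.8 in the exercised ones, as means 432 ± 31.5 and 51.6 ± 5.39 (SD, n = 2 libraries each). Clca3a1 (chromosome 3, 144729677 to 144760977, minus strand) had 634 and 458 CPM in the sedentary libraries and 82.3 and 106 in the exercised ones. Slco2a1 (chromosome 9, 102988712 to 103096002, plus strand) had 1002 and 1167 CPM in the sedentary libraries and 766 and 681 in the exercised ones. In all 3 the sedentary libraries lay above the exercised ones with no overlap, but these genes chose the cells, so their levels here are a description with no test. The same genes were then read in all cells of the sinusoidal gate, 65, 197, 260 and 514 cells taken without regard to Selp, Slco2a1 or Clca3a1, a comparison added after these levels had been seen. There 772 of 8780 genes passed edgeR's quasi-likelihood test, 8.79%, with 3.77% higher and 5.02% lower in exercised libraries. Of those cells, 51, 169, 115 and 253 are Selp-gate cells, so the levels of the 3 gate genes there are also a description with no test. Selp was at 401, 446, 30.3 and 29.6 CPM, Clca3a1 at 622, 452, 58.5 and 80.7 and Slco2a1 at 1014, 1137, 520.4 and 479. Lrg1, which encodes leucine-rich alpha-2-glycoprotein and took no part in the gate, was at 1492, 1242, 124 and 99.5 (log2 fold change, exercised over sedentary, -3.78 ± 0.25 with its standard error, adjusted p = 2.46e-06). The sedentary and exercised libraries did not overlap for any of the 4 genes.

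**Figure D2:**
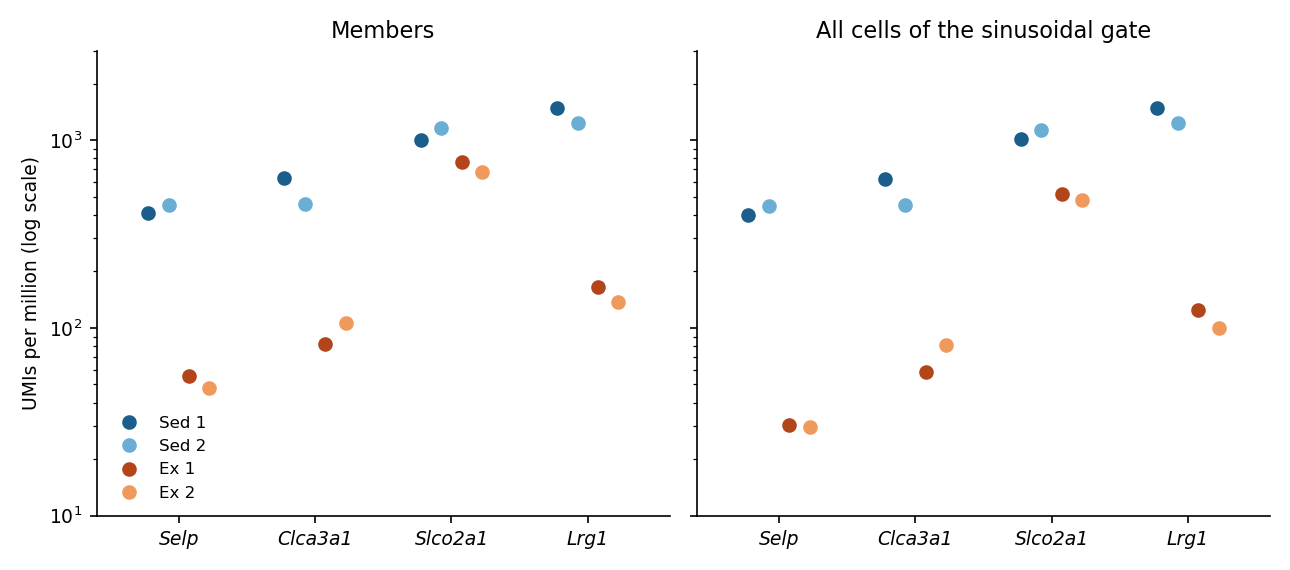
CPM (log axis) of Selp, Clca3a1, Slco2a1 and Lrg1 in each library, in the Selp-gate cells (members, left) and in all cells of the sinusoidal gate (right); each point is 1 library. Both sedentary points lie above both exercised points for each gene in each panel, by the widest margin for Selp in the right panel (401 and 446 against 30.3 and 29.6).

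The Selp-gate cells made up 0.771% (95% exact binomial interval 0.583 to 1.00%) and 2.31% (1.99 to 2.68%) of kept cells in the sedentary libraries and 1.98% (1.65 to 2.36%) and 6.13% (5.43 to 6.90%) in the exercised ones. The groups overlapped (difference of means 2.51 percentage points, exact two-sided permutation p = 0.667, n = 2 libraries each). As a share of gated endothelial cells they were 80.0% and 86.3% against 45.3% and 49.9%, which did not overlap. The means were 83.1 ± 4.44% and 47.6 ± 3.27% (SD), a difference of -35.5 percentage points, with an exact two-sided permutation p = 0.333, the smallest that 2 against 2 libraries can give. The comparison cells are shallower, and among cells of 2000 to 6000 UMIs, an alternative added after the data had been seen, the groups overlapped. There the shares were 61.1% (11 of 18 cells) and 87.5% (49 of 56) in the sedentary libraries and 65.6% (59 of 90) and 62.1% (154 of 248) in the exercised ones, a difference of -10.5 percentage points (exact two-sided permutation p = 1, n = 2 libraries each). The gate genes that set this share were themselves lower in exercised libraries, and the intervals cover counting error only. Fewer cells of a kind passing the CD45 beads and fewer in the liver cannot be told apart.

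Within the Selp-gate cells, 403 genes were higher and 506 lower in exercised than in sedentary libraries among 8356 tested (edgeR quasi-likelihood test, Benjamini-Hochberg adjusted p under 0.05), that is 10.9% of genes, 4.82% higher and 6.06% lower. DESeq2 called 479 genes, 5.73%, with 2.07% higher and 3.66% lower. Without the TMM scaling factors the split was 542 higher and 384 lower and the median of all genes moved to 0.15 from -0.00 on the log2 scale, so small changes depend on that scaling. With 1 library left out the number of calls ranged from 331 (without Ex 2) over 470 (without Ex 1) to 1062 (without Sed 1) and 1245 (without Sed 2). The lowered genes included interferon-stimulated genes, Lrg1, Clu and Itga2b, and the raised ones included the sinusoidal genes Wnt2, Ehd3 and Bmp2. Exercise and any difference in handling between the 2 groups of samples cannot be told apart. The gate also chose cells by different genes in each group. In the exercised libraries 76 and 153 cells entered through Slco2a1 alone, against 5 and 12 in the sedentary ones. In all cells of the sinusoidal gate, taken without regard to Selp, Slco2a1 or Clca3a1, 772 genes passed, 663 of them shared with these calls. Of the 65, 197, 260 and 514 cells there, 51, 169, 115 and 253 were also Selp-gate cells. The part of the choice of cells in the calls was not tested further.

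By the naming rule, the largest falls among genes above 50 CPM were those of Ctsj, Sema3a, Ly6c1, Grrp1 and Serpina3n. Ctsj, a placental-type cathepsin gene, was found with 296 UMIs over the sedentary libraries and 1 over the exercised ones, a ratio of 0.00286 (95% counting interval 0.0000721 to 0.016). Sema3a, which encodes a secreted semaphorin, had 149 and 72.5 CPM in the sedentary libraries and 0 and 3.41 in the exercised ones (log2 fold change -5.57 ± 0.71, adjusted p = 0.00323). Ly6c1, a glycosyl-phosphatidylinositol anchored surface protein of endothelium and monocytes, had 213 and 273 CPM in the sedentary libraries and 1.58 and 9.55 in the exercised ones (log2 fold change -5.28 ± 0.38, adjusted p = 2.07e-05). Both were near the detection limit in the exercised libraries, and the groups did not overlap. Grrp1 had 276 and 139 CPM in the sedentary libraries and 4.75 and 6.82 in the exercised ones (log2 fold change -5.18 ± 0.51, adjusted p = 6.61e-04). Serpina3n, an acute-phase protease inhibitor, had 866 and 494 CPM in the sedentary libraries and 33.2 and 15 in the exercised ones (log2 fold change -5.11 ± 0.49, adjusted p = 0.00157), and a UMI of it was found in 75.0% and 78.4% of sedentary but 5.83% and 3.46% of exercised Selp-gate cells, against at most 0.925% of B-like cells. In the other sinusoidal cells, which were shallower, the Serpina3n share was 57.1% and 39.3% in sedentary and 2.07% and 0% in exercised libraries. All 5 genes kept their call without any single library.

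The largest rises above 50 CPM were those of Slc26a10, H2-Aa, Tiam1, Pgm5 and Prelp. Slc26a10, of the anion exchanger family, had 1 UMI over the sedentary libraries and 129 over the exercised ones, a ratio of 109 (95% counting interval 19.2 to 4343). Pgm5, a phosphoglucomutase-related protein of cell adhesions, had 3 UMIs over the sedentary libraries and 107 over the exercised ones, a ratio of 30.2 (95% counting interval 10.1 to 149). Prelp, a leucine-rich matrix proteoglycan, had 0 and 3.05 CPM in the sedentary libraries and 60.1 and 68.2 in the exercised ones (log2 fold change 4.65 ± 0.49, adjusted p = 1.17e-04). Tiam1, an exchange factor for Rac, had 2.15 and 3.05 CPM in the sedentary libraries and 79.1 and 93.5 in the exercised ones (log2 fold change 4.76 ± 0.41, adjusted p = 3.22e-05). In each of the 4 genes both exercised libraries lay above both sedentary ones, where 0 to 4 UMIs were counted per library. H2-Aa rested on few cells and is described with the other MHC class II genes.

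**Figure D3:**
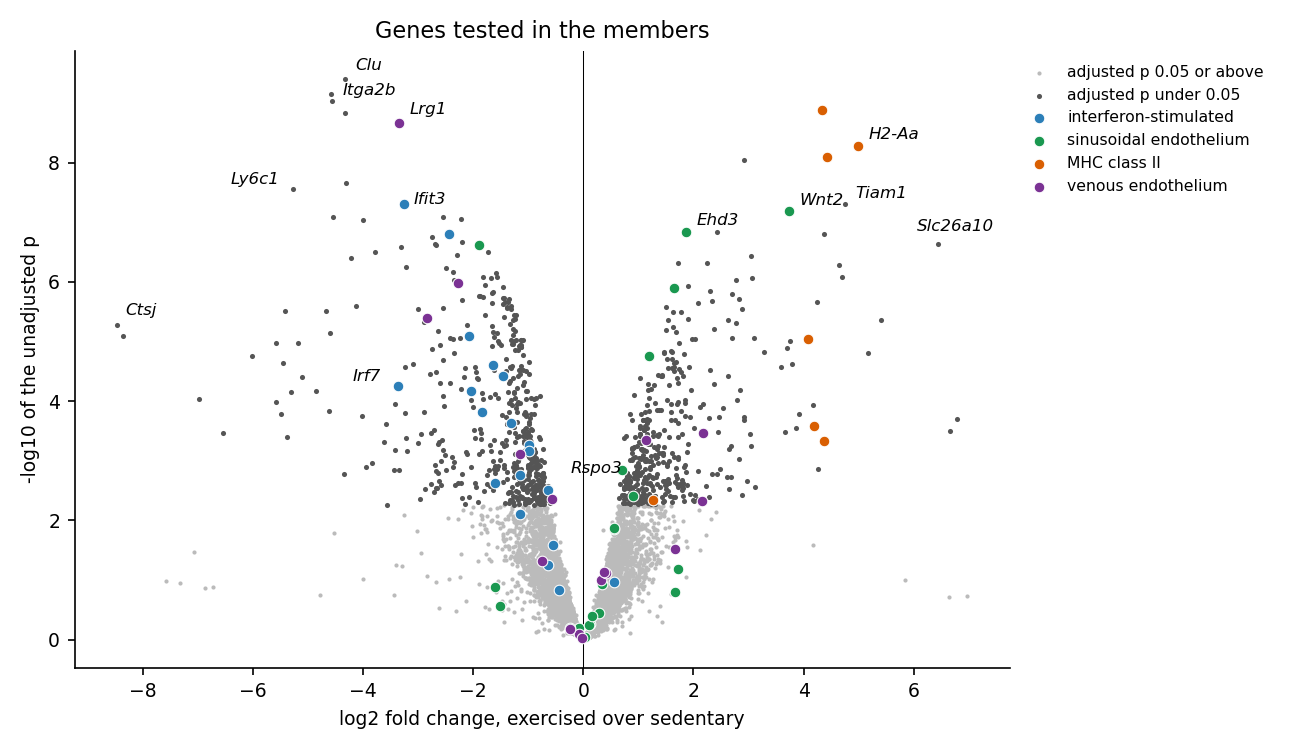
Each of the 8356 genes tested in the Selp-gate cells, by its log2 fold change (exercised over sedentary, horizontal axis) and the -log10 of its unadjusted p from edgeR (vertical axis); dark points pass at adjusted p under 0.05 and 4 gene lists are coloured. Of 20 interferon-stimulated genes the 14 that fell lie to the left, down to -3.37 for Irf7, and the 7 MHC class II genes to the right.

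Interferon-stimulated genes are induced through the factor complex ISGF3, which binds a response element with a pair of GAAA cores. Of 21 such genes, 20 were tested and 14 fell, 0 rose and 6 did not pass, with a median log2 fold change of -1.23 against -0.00 over all genes, where 6.06% of genes were lower. The number that fell was 8 without Ex 2, 9 without Ex 1, 14 without Sed 1, where 1 rose, and 16 without Sed 2. Among the 454 cells without Vwf or Rspo3 UMIs it was 9. Promoters are shown for 3 of the genes that fell and hold this element, and for Irf7, which fell most and does not hold it in this window. RefSeq start sites (GRCm38.p6) were matched for 15 of the 21 genes, and each sequence is the 200 bases before the start, 5' to 3' on the gene's strand, with matches on either strand to 2 GAAA cores held apart by any 2 bases in capitals.
Ifit3 (chr19:34583329-34583528, plus strand): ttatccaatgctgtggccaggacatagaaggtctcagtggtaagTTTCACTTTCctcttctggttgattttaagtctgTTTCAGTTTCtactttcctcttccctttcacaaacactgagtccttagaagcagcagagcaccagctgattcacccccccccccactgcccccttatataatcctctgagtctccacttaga
Isg15 (chr4:156200819-156201018, minus strand): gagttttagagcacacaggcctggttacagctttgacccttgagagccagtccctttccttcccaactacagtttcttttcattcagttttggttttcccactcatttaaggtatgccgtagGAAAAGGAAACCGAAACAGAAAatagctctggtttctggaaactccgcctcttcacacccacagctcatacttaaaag
Bst2 (chr8:71537473-71537672, minus strand): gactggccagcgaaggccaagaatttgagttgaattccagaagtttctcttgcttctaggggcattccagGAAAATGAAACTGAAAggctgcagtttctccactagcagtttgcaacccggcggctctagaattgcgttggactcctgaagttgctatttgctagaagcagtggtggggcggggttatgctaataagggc
Irf7 (chr7:141266425-141266624, minus strand): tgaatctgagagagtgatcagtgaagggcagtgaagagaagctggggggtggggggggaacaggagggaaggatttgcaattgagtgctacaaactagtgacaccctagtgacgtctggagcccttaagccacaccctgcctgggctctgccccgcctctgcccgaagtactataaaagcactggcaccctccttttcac
Ifit3 holds 2 matches, which begin 156 and 122 bases before the start. Isg15 holds 3 overlapping ones and Bst2 holds 2 overlapping ones. In the longer RefSeq windows (250 bases before to 50 after the start) a match was found for 10 of the 15 genes, against 3.44% of 32851 windows of all genes. Among the 10 were Gbp2, Stat2 and Igtp, which were not among the genes that fell. A match describes the letters of the window only.

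Ifit3, whose product holds viral RNA-binding complexes together, had 164 and 133 CPM in the sedentary libraries and 14.2 and 18.4 in the exercised ones (log2 fold change -3.27 ± 0.28, adjusted p = 3.22e-05). Irf7, a transcription factor that amplifies type I interferon, had 469.8 and 240.3 CPM in the sedentary libraries and 44.3 and 34.1 in the exercised ones (log2 fold change -3.37 ± 0.40, adjusted p = 0.002). Isg15, a ubiquitin-like modifier, had 246 and 301 CPM in the sedentary libraries and 68 and 48.4 in the exercised ones (log2 fold change -2.44 ± 0.23, adjusted p = 6.04e-05). In all 3 the sedentary libraries lay above the exercised ones without overlap. Iigp1, an interferon-induced GTPase, had 657 and 370.1 CPM in the sedentary libraries and 153 and 169 in the exercised ones (log2 fold change -1.84 ± 0.30, adjusted p = 0.00432), and Ifi44 changed by -2.08 on the log2 scale. Bst2, the membrane tether tetherin, changed less (log2 fold change -0.65 ± 0.18, adjusted p = 0.0346) and lost its call without Sed 1 (-0.56, adjusted p = 0.0522), Ex 1 (-0.68, 0.246) or Ex 2 (-0.61, 0.354). Ifit3 also differed in level between libraries outside the Selp-gate cells. It stood at 198, 126, 107 and 39.7 CPM over all kept cells, and with cells thinned to 1000 UMIs a UMI of it was found in 18.9%, 12.3%, 0.877% and 0.778% of Selp-gate cells and in 12.0%, 4.55%, 1.55% and 0.519% of B-like cells. Against the other sinusoidal cells the change of Ifit3 differed by -0.50 ± 0.52 on the log2 scale (adjusted p = 0.921 for the difference of the changes in edgeR), which did not pass.

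Genes of the sinusoid were higher in exercised libraries in part. Of 23 sinusoidal genes 21 were tested, of which 6 rose, 1 fell and 14 did not pass, with a median of 0.33. Over all genes 4.82% were higher and 6.06% lower. Wnt2, a ligand made by pericentral sinusoidal endothelium, had 6.46 and 21.4 CPM in the sedentary libraries and 240.5 and 253 in the exercised ones (log2 fold change 3.74 ± 0.32, adjusted p = 3.93e-05). Ehd3, an endocytic recycling protein, had 724 and 722 CPM in the sedentary libraries and 2734 and 3202 in the exercised ones (log2 fold change 1.87 ± 0.18, adjusted p = 6.03e-05). Bmp2, a ligand through which liver endothelium sets hepatocyte iron sensing, had 388 and 409 CPM in the sedentary libraries and 1278 and 1531 in the exercised ones (log2 fold change 1.65 ± 0.19, adjusted p = 1.97e-04). For each, the exercised libraries lay above the sedentary ones by more than the spread within a group. Dnase1l3, a secreted nuclease, had 1136 and 1138 CPM in the sedentary libraries and 2610.4 and 3237 in the exercised ones (log2 fold change 1.19 ± 0.18, adjusted p = 9.04e-04). Maf and Plxnc1 also rose (0.89 and 0.71) but lost their calls without either exercised library, with adjusted p from 0.114 to 0.224. Clec1b, a C-type lectin-like receptor, fell (1170.1, 1176, 339 and 370.5 CPM, log2 fold change -1.89 ± 0.19, adjusted p = 7.27e-05). Without Ex 1 or Ex 2 the list had 4 risen genes and 1 fallen.

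The receptor genes Stab2, Mrc1 and Lyve1 did not pass. Stab2, a scavenger receptor for hyaluronan, was at 649, 665, 929 and 1029 CPM, higher in both exercised libraries. Mrc1, the mannose receptor, was at 1202, 1149, 1642 and 2241, also without overlap. Lyve1, a hyaluronan receptor, was at 1825, 389, 441 and 441, with Sed 1 alone high. Oit3 rose (0.75, adjusted p = 0.0482), but without Sed 2, Ex 1 or Ex 2 its adjusted p was 0.105, 0.0971 and 0.471.

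Of 16 genes of continuous capillaries 13 were tested, of which 8 rose and 1 fell, with a median of 0.84. Over all genes 4.82% were higher and 6.06% lower. Without Ex 2 only 1 rose and 1 fell, without Ex 1 5 rose and 1 fell, and DESeq2 called 4 risen and 2 fallen. Cavin2, which shapes caveolae, had 353 and 238 CPM in the sedentary libraries and 922 and 1239 in the exercised ones (log2 fold change 1.71 ± 0.26, adjusted p = 0.00157). Cav1, the main caveolar coat protein, was counted with 1 UMI over the sedentary libraries and 58 over the exercised ones, a ratio of 49.1 (95% counting interval 8.46 to 1971), and lost its call without Ex 2 (log2 fold change 4.85, adjusted p = 0.393). Cd300lg, a lipid-binding receptor of capillary endothelium, had 36.6 and 105 CPM in the sedentary libraries and 547 and 614 in the exercised ones (log2 fold change 2.79 ± 0.37, adjusted p = 0.00306) and lost its call without Ex 2 (2.71, adjusted p = 0.0653). The fallen gene was Fabp4, a fatty acid carrier (2919.9, 2505, 1274 and 1239.6 CPM, log2 fold change -1.28 ± 0.18, adjusted p = 5.64e-04). Kdr, the main receptor for vascular endothelial growth factor, rose by 1.02 ± 0.17 (adjusted p = 0.00157), and its co-receptor Nrp1 by 1.50 ± 0.19 (adjusted p = 2.88e-04). Both exercised libraries lay above both sedentary ones for Kdr (1116, 1347, 2740.1 and 2884) and Nrp1 (405, 444, 1262 and 1437).

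Vein genes moved in both directions. Of 20 venous genes 16 were tested, 3 rose, 5 fell and 8 did not pass, with a median of -0.05. Over all genes 4.82% were higher and 6.06% lower. Lrg1 (chromosome 17, 56119678 to 56122001, minus strand) had 1480.5 and 1230.0 CPM in the sedentary libraries and 165 and 137 in the exercised ones (log2 fold change -3.35 ± 0.22, adjusted p = 2.97e-06). Thinned to 1000 UMIs, its share of cells with a UMI was 75.5% and 62.0% in sedentary and 10.5% and 8.17% in exercised Selp-gate cells. The share was at most 2.75% in B-like cells. In the other sinusoidal cells it was 60% and 43.8% in sedentary and 10.1% and 2.88% in exercised libraries. Ackr1, a decoy chemokine receptor of venules, had 108 and 129.7 CPM in the sedentary libraries and 33.2 and 23.9 in the exercised ones (log2 fold change -2.28 ± 0.26, adjusted p = 1.76e-04), and Vegfc, a lymphangiogenic growth factor, had 49.6 and 62.6 CPM in the sedentary libraries and 4.75 and 10.9 in the exercised ones (log2 fold change -2.83 ± 0.36, adjusted p = 3.75e-04). The central vein ligand Rspo3 went the other way, with 140.1 and 189 CPM in the sedentary libraries and 499.9 and 327 in the exercised ones (log2 fold change 1.14 ± 0.24, adjusted p = 0.00927), and lost its call without Ex 1 (0.84, adjusted p = 0.14). The share of cells with a Rspo3 UMI was 21.4% and 17.6% in sedentary and 13.3% and 10.4% in exercised Selp-gate cells, and 7.55%, 7.60%, 8.77% and 6.61% in the 4 libraries once thinned to 1000 UMIs, against at most 0.0903% of B-like cells unthinned. The 316 and 479 UMIs of the exercised libraries lay in 16 and 27 cells. In edgeR the Rspo3 call was also lost in all cells of the sinusoidal gate (0.52, adjusted p = 0.191). It was lost among cells of 2000 to 6000 UMIs as well (1.50, adjusted p = 0.309). Vwf, the clotting factor carrier of Weibel-Palade bodies, had 185 and 124 CPM in the sedentary libraries and 82.3 and 72.3 in the exercised ones (log2 fold change -1.15 ± 0.26, adjusted p = 0.0134) and lost its call without Ex 1 (-1.23, 0.0707) or Ex 2 (-1.07, 0.144). Wnt9b and Lhx6 rose by 2.15 and 2.17, but Wnt9b lost its call without Sed 1, Sed 2 or Ex 1 (adjusted p from 0.149 to 0.181) and Lhx6 without Ex 2 (0.204). Vwf also lost its call under the cell filter of 500 genes and 5% mitochondrial UMIs (-0.66, edgeR adjusted p = 0.145). Thbd, the thrombin receptor thrombomodulin, overlapped between groups (81.9, 169, 153 and 126 CPM). Without Ex 1 the list had 1 risen and 3 fallen genes, and without Ex 2 it had 2 and 3.

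Of 17 arterial genes only 7 were tested, 1 rose and 3 fell, where 4.82% of all genes were higher and 6.06% lower. Clu, the extracellular chaperone clusterin, fell (763 and 813 CPM in the sedentary libraries and 34.8 and 50.5 in the exercised ones, log2 fold change -4.33 ± 0.25, adjusted p = 2.43e-06). Efnb2 and Edn1 changed by -1.20 and -1.29, and Ltbp4 rose by 1.50. These 3 calls did not survive the loss of each library: adjusted p without Ex 1 was 0.0503, 0.25 and 0.142. Without Ex 2, adjusted p was 0.0571 for Efnb2 and 0.216 for Ltbp4, and without Sed 1 it was 0.0572 for Edn1. Clu kept its call without any single library. It had a UMI in 87.5% and 89.8% of sedentary and 12.5% and 8.08% of exercised Selp-gate cells, against at most 1.50% of B-like cells. In the other sinusoidal cells, which were shallower, the Clu share was 42.9% and 50% in sedentary and 2.76% and 1.92% in exercised libraries.

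**Figure D4:**
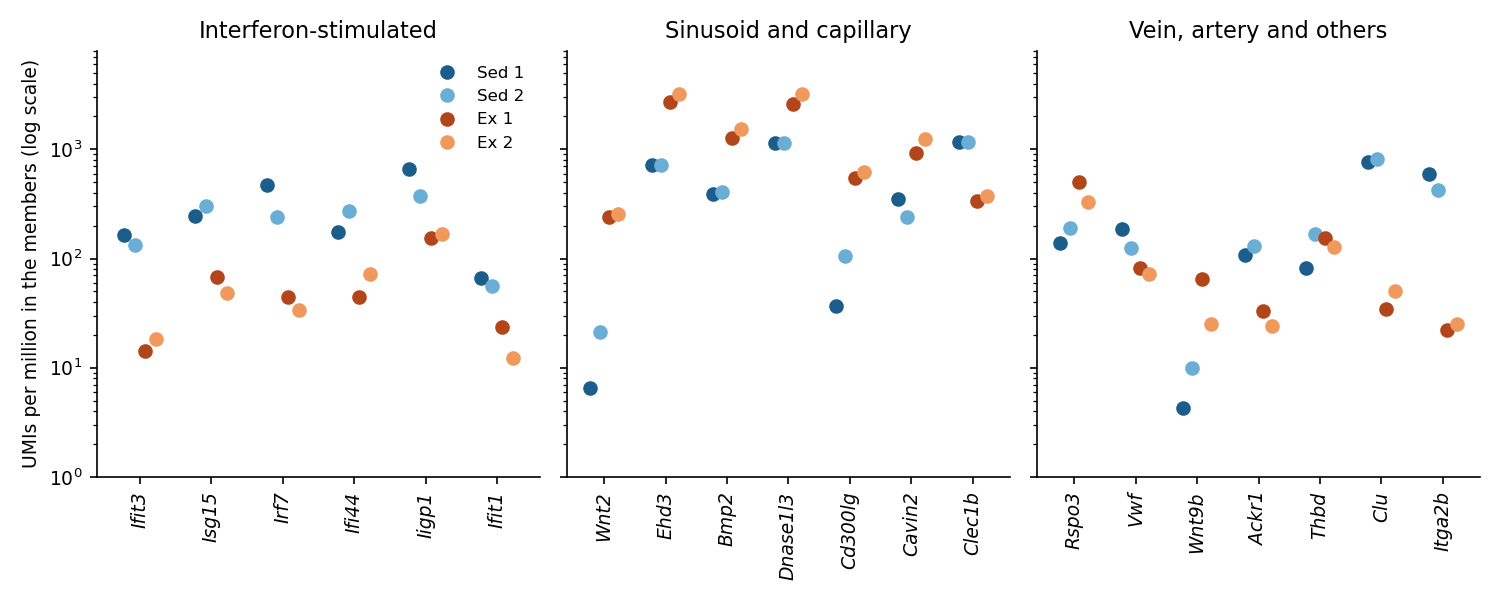
CPM (log axis) in the Selp-gate cells of each library for interferon-stimulated genes, sinusoidal and capillary genes, and vein, artery and other genes; each point is 1 library. Sedentary points lie above exercised ones for all 6 interferon-stimulated genes shown, and below them for Wnt2, Ehd3, Bmp2, Dnase1l3, Cd300lg and Cavin2.

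The MHC class II genes, whose products present antigen to CD4 T cells, all passed as higher in exercised libraries (7 of 7, median 4.34, against 4.82% of all genes higher), but a few cells carried them. H2-Aa had 2.15 and 9.92 CPM in the sedentary libraries and 302 and 246 in the exercised ones (log2 fold change 4.99 ± 0.35, adjusted p = 6.18e-06), and Cd74, the invariant chain, had 8.62 and 46.5 CPM in the sedentary libraries and 659.7 and 658 in the exercised ones (log2 fold change 4.20 ± 0.51, adjusted p = 0.00636). Cd74 lost its call without Ex 1 or Ex 2 (adjusted p = 0.171 and 0.267). Of 915 and 2106 UMIs of H2-Aa, H2-Ab1, H2-Eb1 and Cd74 in the exercised libraries, 95.4% and 95.7% lay in 9 of 120 and 7 of 260 cells with at least 10 such UMIs. Sed 1 had no such cell and Sed 2 had 1. These 17 cells also carried leukocyte genes: Ptprc, which encodes CD45, was found in 14 of them against 38 of the other 595, Tyrobp in 16 against 84, and Csf1r in 13 against 25. Clec4g was found in 16 of the 17 and Ptprb in all 17, at 1223 and 1974 CPM against 2897 and 3280 in the others. Of the 17, 11 were among the cells with the highest doublet scores. When the 44 cells with at least 5 UMIs over Ptprc, Cd52, Coro1a and Tyrobp were left out, an alternative added after the data had been seen, only 1 MHC class II gene had enough UMIs to be tested, Cd74, and it did not pass (1.04, adjusted p = 0.0912). The same alternative left 863 calls in all, 373 higher and 490 lower, with 14 fallen interferon-stimulated genes. With the highest doublet scores left out, 4 MHC class II genes could be tested. H2-Aa passed (4.04, adjusted p = 0.0288), and H2-Ab1 (4.80, 0.13), H2-Eb1 (3.86, 0.0819) and Cd74 (3.79, 0.271) did not. In all Selp-gate cells the log2 fold changes were 4.99, 4.42, 4.34 and 4.20. Leaving out these scores took away 7 of the 9 cells rich in MHC class II UMIs in Ex 1 and 3 of the 7 in Ex 2. The part of the remaining ones in these fold changes was not tested. Outside those 17 cells the level of H2-Aa was 8.40 CPM.

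Genes of basement membrane and matrix fell in 5 of 14 tested (of 20), with 0 risen and a median of -0.38, where 6.06% of all genes were lower. Col4a2, a chain of collagen IV, had 825 and 624 CPM in the sedentary libraries and 280.0 and 244 in the exercised ones (log2 fold change -1.65 ± 0.22, adjusted p = 5.31e-04). Its partner Col4a1, with Nid1, Lamc1 and Igfbp7, changed by -0.93, -1.04, -0.93 and -0.87. Without Ex 1 or Ex 2 the list had 1 fallen gene, 8 fell and 1 rose without Sed 1, and 3 fell among the cells without Vwf or Rspo3 UMIs. Early response genes, which are also induced by tissue dissociation, fell in 5 of 18 (Fos, Jun, Junb, Ier2 and Socs3), with a median of -0.57, against the same 6.06%. Socs3, an inhibitor of cytokine signalling, had 386 and 673 CPM in the sedentary libraries and 111 and 119 in the exercised ones (log2 fold change -2.37 ± 0.25, adjusted p = 1.40e-04). With the highest doublet scores left out 1 of the 18 fell and 1 rose, and without Ex 1 2 fell.

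Of 22 genes of leukocyte capture 13 were tested, 2 fell and 0 rose, with a median of -0.08, where 10.9% of all genes passed and 6.06% were lower. Il1r1, the interleukin-1 receptor, had 306 and 311 CPM in the sedentary libraries and 103 and 94.8 in the exercised ones (log2 fold change -1.81 ± 0.20, adjusted p = 1.59e-04). Tnfrsf1a changed by -0.83 and lost its call without Ex 1 (adjusted p = 0.137) or Ex 2 (0.228). The adhesion molecules that bind activated leukocytes did not pass: Icam1 was at 51.7, 92.3, 66.4 and 89.4 CPM and Vcam1 at 81.9, 193, 88.6 and 99.6, with overlapping groups. Sele, the selectin closest to Selp in endothelium, was at 0, 34.3, 1.58 and 6.82 and was too low to be tested.

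In the prostaglandin list 5 of 13 genes were tested, 2 rose and 1 fell, where 4.82% of all genes were higher and 6.06% lower. Hpgd, which degrades prostaglandins taken up by Slco2a1, had 138 and 293 CPM in the sedentary libraries and 577 and 606 in the exercised ones (log2 fold change 1.27 ± 0.28, adjusted p = 0.0182) and lost its call without Ex 1 (1.34, adjusted p = 0.0751) or Ex 2 (1.24, 0.108). Slco3a1 rose by 0.84 and lost its call in the same way (0.136 and 0.24). Ptgs2, the inducible cyclooxygenase, was low throughout (12.9, 26.7, 0 and 2.73 CPM, log2 fold change -3.59 ± 0.71, adjusted p = 0.00603). It was not testable without Sed 2. In the vasoregulatory list 11 of 17 were tested, with 3 risen and 2 fallen, against the same 4.82% and 6.06%. Ace, the angiotensin-converting enzyme, had 282 and 156 CPM in the sedentary libraries and 3.16 and 13 in the exercised ones (log2 fold change -4.62 ± 0.55, adjusted p = 0.00418). Klf4, a flow-responsive factor, rose by 1.27 but not without Ex 2 (1.15, adjusted p = 0.097).

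In the angiogenic list 10 of 14 were tested, 1 rose (Nrp1) and 2 fell. For this and each list in this paragraph, 4.82% of all genes were higher and 6.06% lower. Esm1, a proteoglycan of sprouting tip cells, had 121 and 117 CPM in the sedentary libraries and 3.16 and 8.19 in the exercised ones (log2 fold change -4.31 ± 0.35, adjusted p = 1.85e-05). Mcam changed by -1.15 and lost its call without Ex 2 (-0.99, adjusted p = 0.0983). Among Notch, Wnt and BMP genes 14 of 21 were tested, 3 rose and 1 fell. Bmp6, which with Bmp2 induces hepcidin, had 32.3 and 28.2 CPM in the sedentary libraries and 103 and 109.8 in the exercised ones (log2 fold change 1.69 ± 0.26, adjusted p = 0.00109). Scavenging and endocytosis receptors gave 2 risen and 2 fallen of 11 tested (of 15), and haemostasis genes 1 and 1 of 8 tested (of 16). Of 4 lymphatic genes tested (of 10), Nrp2 and Ackr4 rose and Ackr2 fell. Of 8 cell cycle genes tested (of 15), Stmn1 alone fell (-2.43). Stmn1 lost its call without the cells of at least 5 leukocyte UMIs (-1.11, edgeR adjusted p = 0.179). It was also lost in all cells of the sinusoidal gate (-0.69, 0.304). Of the 21 pan-endothelial genes Kdr and Calcrl rose and Cd34 and Ecscr fell. Without Ex 2 the calls of Ackr4, Calcrl, Cd34 and Ecscr were lost (adjusted p = 0.0998, 0.28, 0.0525 and 0.199), and that of Calcrl also without Ex 1 (0.0955).

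Itga2b, the platelet integrin chain CD41, had 590.5 and 427 CPM in the sedentary libraries and 22.1 and 25.2 in the exercised ones (log2 fold change -4.56 ± 0.28, adjusted p = 2.43e-06). Since platelets also hold Selp, other genes of the platelet list are given beside it. Gp1bb, Gp6 and Tubb1 were at 0 in all Selp-gate cells, and Gp1ba, Treml1 and F2rl2 were at 3.16 CPM or below in every library. Pf4, a platelet chemokine, was at 47.4, 22.9, 41.1 and 44.3 CPM, Ppbp at 0, 1.53, 14.2 and 3.41, Gp9 at 10.8, 0, 9.49 and 4.09 and Nrgn at 28, 6.1, 28.5 and 20.5. Itgb3, the integrin chain that pairs with Itga2b in platelets, was at 252, 102, 49 and 55.3, higher in both sedentary libraries, and did not pass (log2 fold change -1.86 ± 0.52, adjusted p = 0.103), though it did without Sed 1 (-1.08, adjusted p = 0.00452) or Sed 2 (-2.48, 7.16e-10) and by DESeq2 (-1.92, 8.34e-04). The sum of the list ranged from 561 to 933 CPM in sedentary and from 156 to 169 in exercised libraries. Itga2b and Itgb3 made up most of the sedentary sums. Pf4, Gp9 and Nrgn overlapped between groups, and Ppbp was higher in both exercised libraries. Itga2b was found in 82.1% and 73.3% of sedentary Selp-gate cells and in 10.0% and 6.54% of exercised ones. The share was at most 1.39% in B-like cells. In the other sinusoidal cells, which were shallower, it was 21.4% and 25% in sedentary and 2.76% and 1.92% in exercised libraries.

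The Selp-gate cells were next compared with the other 448 sinusoidal cells of the same libraries, with the library as a block. Of 6511 genes 116 were higher and 167 lower (4.35% called, 1.78% higher and 2.56% lower, edgeR), and without TMM factors 221 were higher and 165 lower, where the median of all genes moved to 0.13 from 0.04. The sedentary libraries had only 14 and 28 other cells, of 32243 and 58172 UMIs. With 1 library left out, calls numbered 347 (Sed 1), 144 (Sed 2), 48 (Ex 1) and 47 (Ex 2). Among cells of 2000 to 6000 UMIs, which only the exercised libraries held in number, 13 genes passed, 6 higher and 7 lower. Depth and gate cannot be told apart in the other calls.

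Vein genes were higher in the Selp-gate cells in 9 of 13 tested (of 20), with 0 lower and a median of 1.15 against 0.04 over all genes, where 1.78% were higher. Rspo3 had 140.1, 189, 499.9 and 327 CPM in the Selp-gate cells and 0, 17.2, 21.6 and 21.1 in the others (log2 fold change 4.05 ± 0.25, adjusted p = 7.48e-54). Vwf had 185, 124, 82.3 and 72.3 and 0, 68.8, 5.4 and 9.95 (log2 fold change 2.72 ± 0.36, adjusted p = 1.79e-11). Thbd had 81.9, 169, 153 and 126 and 0, 0, 59.4 and 52.2 (log2 fold change 1.38 ± 0.23, adjusted p = 4.78e-07). In each of the 3 the Selp-gate cells were higher in every library. Cdh13 (1.65), Ptgs1 (1.15) and Lrg1 (1.27), with Il6st, Ephb4 and Vcam1, made up the rest. The count was 10 with Sed 1 left out, 8 with Sed 2, 7 with Ex 1 and 6 with Ex 2 left out, 2 among cells of 2000 to 6000 UMIs and 2 by DESeq2, which called 1.2% of all genes, 0.338% higher. DESeq2 gave an adjusted p for only 452 of the 6511 genes and for 4 of the 13 vein genes, and gave none for Rspo3, Vwf, Thbd, Cdh13 or Ptgs1, whose log2 differences in it were 4.08, 2.68, 1.76, 1.44 and 1.21. With its p-values adjusted over all 6511 genes instead, added after the data had been seen, 17 genes passed (0.261%, 0.138% higher and 0.123% lower), 4 of them vein genes. Cdh13 lost its call without Ex 2 (1.45, adjusted p = 0.145).

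Other genes higher in the Selp-gate cells by the naming rule included Ly6c1, Slc7a8, Cnmd, Clu, Itga2b, Kit, Gja4 and C1qa, with log2 differences from 1.06 for C1qa to 2.04 for Ly6c1. Without Ex 2 the calls of Ly6c1, Clu and C1qa were lost (adjusted p = 0.117, 0.0556 and 0.136). Kit, the stem cell factor receptor found on central endothelium, had 153, 209, 402 and 332 against 62, 17.2, 170.2 and 134 CPM (log2 fold change 1.27 ± 0.19, adjusted p = 8.66e-09). C1qa, a complement gene of macrophages, changed to -0.054 once the highest doublet scores were left out. The genes lower in the Selp-gate cells were Esm1, Cd74, Mkrn1, Cd44, Ifit3, AY036118, S100a11, Hcls1, Alb and Cenpb, from -2.79 for Esm1 to -0.73 for Cenpb. Of these, Cd74 and AY036118 kept their call without any single library. Without Ex 2 the adjusted p of the other 8 ranged from 0.0733 for Esm1 to 0.947 for Alb. Without Ex 1, 7 lost their call, Esm1 being the exception. Esm1 was lost without Sed 1 (0.365), and Cd44, Ifit3 and Hcls1 without Sed 2 (0.146, 0.0719 and 0.0999). Of 6 MHC class II genes tested all 6 were lower, with a median of -1.84, where 2.56% of all genes were lower and 1.78% higher. With the highest doublet scores left out 0 of 5 passed, while the differences were wider (H2-Aa -3.21, adjusted p = 0.323, from -1.90, and Cd74 -3.23, 0.466, from -1.87), and 4 of 9 tested leukocyte markers were lower too. The sinusoidal list gave 7 higher genes of 20 tested, Mrc1 and Stab1 among them, and 0 lower, with a median of 0.36, and 1 or 2 without Sed 2, Ex 1 or Ex 2.

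The cells were not uniform. A UMI of Vwf or Rspo3 was found in 158 of the 612, in 28, 75, 18 and 37 cells per library, which is 50.0%, 42.6%, 15% and 14.2% of them. Rspo3 was found in 86 cells, Vwf in 105 and both in 33. These 158 cells were deeper, with a median of 7792.5 UMIs against 5151.5 in the other 454, so levels are given as CPM and compared within each library, as a description with no test. Fmo2, a flavin-containing monooxygenase, was counted 36, 36, 18 and 46 times in the cells with Vwf or Rspo3 and not once in the others. Plvap, a diaphragm protein of endothelium, was higher in the cells with Vwf or Rspo3 in all 4 libraries, by log2 ratios of 0.86, 0.51, 2.99 and 1.65. Thbd was higher by 2.21, 0.57, 2.35 and 0.82, and Fabp4 by 0.14, 0.58, 1.77 and 1.83. In the same cells Bmp2 was lower by log2 ratios of -0.19, -0.48, -1.36 and -0.76, Clec4g by -0.03, -0.26, -0.90 and -0.91, and Mrc1 by -0.21, -0.16, -0.96 and -0.78. The differences were small in the sedentary libraries and wider in the exercised ones for Fabp4, Bmp2, Clec4g and Mrc1. The part of cell depth, which was greater in the sedentary libraries, in that contrast was not tested. H2-Aa, an MHC class II gene, was at 887 and 757 CPM in the exercised cells with Vwf or Rspo3 and at 175 and 116 in those without (100 against 91 UMIs and 224 against 136), log2 ratios of 2.34 and 2.70. The part of leukocyte RNA in this profile was not tested. In exercised libraries 29 and 45 Selp UMIs lay in the 18 and 37 cells with Vwf or Rspo3, against 6 and 25 in the 102 and 223 without.

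**Figure D5:**
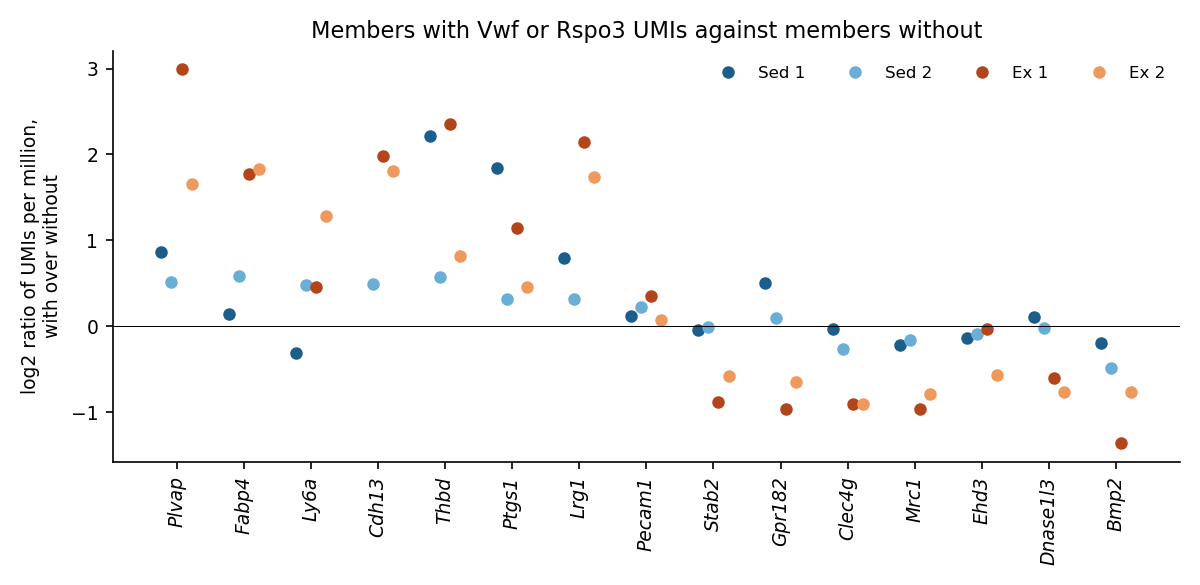
Log2 ratio of CPM between Selp-gate cells (members) with and without a UMI of Vwf or Rspo3, per gene and library; each point is 1 library and 0 marks equal levels. Plvap, Fabp4, Thbd, Ptgs1, Lrg1 and Pecam1 lie above 0 in all 4 libraries, and Stab2, Clec4g, Mrc1, Ehd3 and Bmp2 below 0 in all 4.

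The 24 cells outside the sinusoidal gate had a different profile. Pooled over the libraries they held 1050.5 CPM of Rspo3, 491 of Vwf and 92.0 of Clec4g, against 259.5, 91.4 and 2913 in the 588 cells inside it. Gja5, a gap junction gene of arterial endothelium, was at 84.3 against 2.14, and Fabp4 was at 1794 and 1878. H2-Aa was at 1181 against 109.8 CPM, and the part of leukocyte RNA in these levels was not tested. Their median depth was 1889.5 UMIs against 5601.5, and low sinusoidal counts were part of how they were set apart. With 5 to 7 cells per library they allowed no test by condition.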

How the data were processed

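UMI counts per gene and cell barcode were deposited as one matrix of the 4 libraries, made by the authors with Cell Ranger (version 7.0.0, builds mm10 and GRCm38, per the submitters' processing notes; the matrix header gives 6.1.1). Of 51140 matrix columns, the first 28525 were matched in order to the barcodes, with 135480097 UMIs; the other 22615 were not used here. The number after a barcode was read as the library's place in the aggregation table; breaks in the matrix lay 1, 16 and 35 cells from the block ends. Whether aggregation equalised depth is not given in the sources used here.

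The cell filter required 200 detected genes and allowed 10% mitochondrial UMIs, which left 7261, 7603, 6056 and 4241 cells. UMIs were summed per library and population and tested with edgeR 4.0.16 (TMM, filterByExpr, quasi-likelihood test, Benjamini-Hochberg threshold 0.05, R 4.3.3). The genes that chose the Selp-gate cells were not tested in them. The sinusoidal gate genes Stab2, Clec4g and Oit3 were tested between conditions, but not against the other sinusoidal cells. DESeq2 1.42.0 was an alternative. Shares were thinned to 1000 UMIs; B-like cells had at least 2 Cd79a UMIs. Doublets were kept, except in an alternative without the 422, 462, 293 and 144 highest Scrublet scores (scanpy 1.11.5), since its automatic threshold marked 0.0132%, 0.0165% and 0.0236% of cells in 3 libraries. The tests were tried on simulated data. Genes named from a test passed it, reached 50 CPM where higher, and moved one way in every library: 15 higher and 10 lower against other sinusoidal cells, 5 each way by condition; from each list, up to 6 members by mean level and any that passed. Some genes that the rule or the lists name are not reported here. Cells, lists and tests were chosen with earlier results of these data known.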

Additional observations from a re-analysis of the deposited data

Results flagged for a closer look

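For 8 genes the change between exercised and sedentary libraries differed between the Selp-gate cells and the other sinusoidal cells. The difference itself was tested as an interaction in edgeR, where 14 of 7544 genes passed (0.186%); 500 had an unadjusted p under 0.05, and DESeq2 called 0. Of the 14, 12 were lower, and the median difference over all genes was -0.34. The 14 and 28 sedentary cells of the comparison held few UMIs, and the comparison was added after the data had been seen. Genes with fewer than 3 UMIs in a group, or under 50 CPM in the Selp-gate cells of every library, were left aside.

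The change by condition was lower in the Selp-gate cells for Il4ra, the interleukin-4 receptor (difference -2.81, adjusted p = 0.00236), Tmem2, a cell surface hyaluronidase (-2.07, adjusted p = 0.00114), and Lifr, the leukaemia inhibitory factor receptor (-1.72, adjusted p = 0.00236). Il4ra stood at 381, 384, 115 and 132 CPM in the Selp-gate cells and 0, 68.8, 86.5 and 92 in the others. It was also lower for Ms4a6d (-3.83, adjusted p = 0.024), Plac8 (-2.0, adjusted p = 0.0338) and Cst3 (-1.36, adjusted p = 0.0372), which leukocytes express as well; leukocyte UMIs in the other sinusoidal cells were not tested as a part of this. Sox4, a transcription factor (1.99, adjusted p = 0.00236), and Fabp4 (1.18, adjusted p = 0.0228) went the other way. Fabp4 went from 2919.9 and 2505 to 1274 and 1239.6 CPM in the Selp-gate cells and from 4218 and 3662 to 535 and 890.3 in the others.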

How the results depend on the processing

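Between conditions, 909 genes passed; DESeq2 gave 479, cells of 2000 to 6000 UMIs 415, and leaving out 1 library 331 to 1245, where the lone library of a group is assumed to vary like the others. The replicate numbers of the labels do not pair the libraries (r = -0.02 between same-numbered libraries over 8362 genes), and with the replicate block 854 genes passed. Against the other sinusoidal cells, 283 genes passed; DESeq2 gave 78 (17 with its p-values adjusted over all genes tested), the filter of 500 genes and 5% mitochondrial UMIs 131, leaving out 1 library 47 to 347, the fit with no replicate block (library) 1, and cells of 2000 to 6000 UMIs 13. The interaction gave 14 genes with edgeR and 0 with DESeq2. The alternatives by cell depth, p adjusted over all genes, sinusoidal gate, Vwf or Rspo3 UMIs, thinned sums and leukocyte UMIs were chosen after seeing the data. The cause of these differences was not tested. Both share differences kept their direction under each alternative run, the one among gated endothelial cells narrowing from -35.5 to -10.5 percentage points among cells of 2000 to 6000 UMIs.

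Of 133 gene results with an alternative, 40 kept their direction and their side of the threshold under every one run, leaving aside 20 DESeq2 values with no adjusted p. Reversed values were H2-DMa between conditions (-0.024 without the cells with Vwf or Rspo3) and C1qa against other sinusoidal cells (-0.054 without the highest doublet scores and -0.31 among cells of 2000 to 6000 UMIs). Cells outside the sinusoidal gate were too few for a test by condition or against the other cells, so that alternative gave no value there. Depth limits the sedentary side: Sed 1 held 56 cells, and the other sinusoidal cells of Sed 1 held 32243 UMIs.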
